A study of Mus musculus with 22 samples.

Results

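A set of 10 genes that mark the walls of brain blood vessels were followed in sorted hippocampal nuclei 24 h after status epilepticus, namely 6 genes of endothelial cells (Pecam1, Cdh5, Cldn5, Flt1, Kdr and Tek) and 4 genes of pericytes (Pdgfrb, Rgs5, Abcc9 and Vtn). They were taken from the count table by symbol, through the Ensembl identifiers. All 10 were found among the 53379 genes of the table, and all 10 passed the filter on low counts that left 40714 genes for testing. The comparisons ask how strongly these genes were held by the NeuN- fraction and whether their levels differed between kainate and sham mice.

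The tissue was the left hippocampus of male C57/BL6N mice, which were bought at 8 weeks of age and kept for 4 weeks before surgery. Kainate mice received 70 nl of 20 mM kainate above the right hippocampus, so that the left side was contralateral, and sham mice received 0.9% NaCl. Each treatment had 8 mice, pooled by 4 or by 2 into 3 pools, and the labels used here do not say how many mice each pool held. From each pool, nuclei that carry the neuronal antigen NeuN were sorted from those without it, and mRNA was sequenced from NeuN+ nuclei (called neurons by the study) and NeuN- nuclei (called glia). The 11 libraries were 3 sham NeuN+, 3 kainate NeuN+, 2 sham NeuN- (replicates 1 and 3) and 3 kainate NeuN-. The NeuN- gate takes every nucleus that lacks NeuN, so endothelial cells, pericytes and all glia share it, and no gate for vessels was used. All groups are pools of nuclei. Without a block, the fractions of a pool were fitted as separate libraries, and p-values measure the spread between libraries within groups. With a block, a term for each pool or replicate number, they measure the spread left after it.

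Endothelial cells line the vessel lumen, and in the brain they are sealed to each other by tight junctions that make up the blood-brain barrier. Pericytes sit on the outer face of capillaries in the same basement membrane. Endothelial cells release the ligand PDGF-B, which the pericyte receptor Pdgfrb binds, and vascular endothelial growth factor (VEGF) and the angiopoietins act on the endothelial receptors Flt1, Kdr and Tek.

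The libraries held between 12058875 and 45428465 counts, and levels are given as CPM (counts scaled to the library total) normalized with TMM factors of 0.700 to 1.68. The sort was visible in the cell type markers. The neuronal gene Rbfox3, which encodes NeuN, was measured at 225 ± 42.1 CPM (SD, n = 6) among NeuN+ libraries and at 34.9 ± 10.3 (SD, n = 5) among NeuN- libraries, a log2 difference of 2.72 ± 0.30 (SE). Of 7 neuron markers 6 were higher in NeuN+ nuclei, with a median of 2.11, and Tubb3 was not called (-0.11). All 6 markers of astrocytes, of microglia, of oligodendrocytes and of oligodendrocyte precursors were lower in NeuN+ nuclei, with medians of -3.44, -5.44, -5.56 and -5.20 on the log2 scale. Aldh1l1 of astrocytes had 34.4 ± 13.3 CPM (SD, n = 5) in NeuN- nuclei, Cx3cr1 of microglia 258 ± 187, Mbp of myelin 2274 ± 1513, and Pdgfra of oligodendrocyte precursors 301 ± 224. The NeuN- libraries of replicate 1 stood apart, since the summed oligodendrocyte markers reached 38943 CPM in sham and 27163 in kainate replicate 1, against 4852 to 11653 in the other 3. Sham NeuN- replicate 1 and kainate NeuN- replicate 2 were made from 0.05 ng of RNA with 15 PCR cycles, the other 9 from 1 ng with 10.

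**Figure D1:**
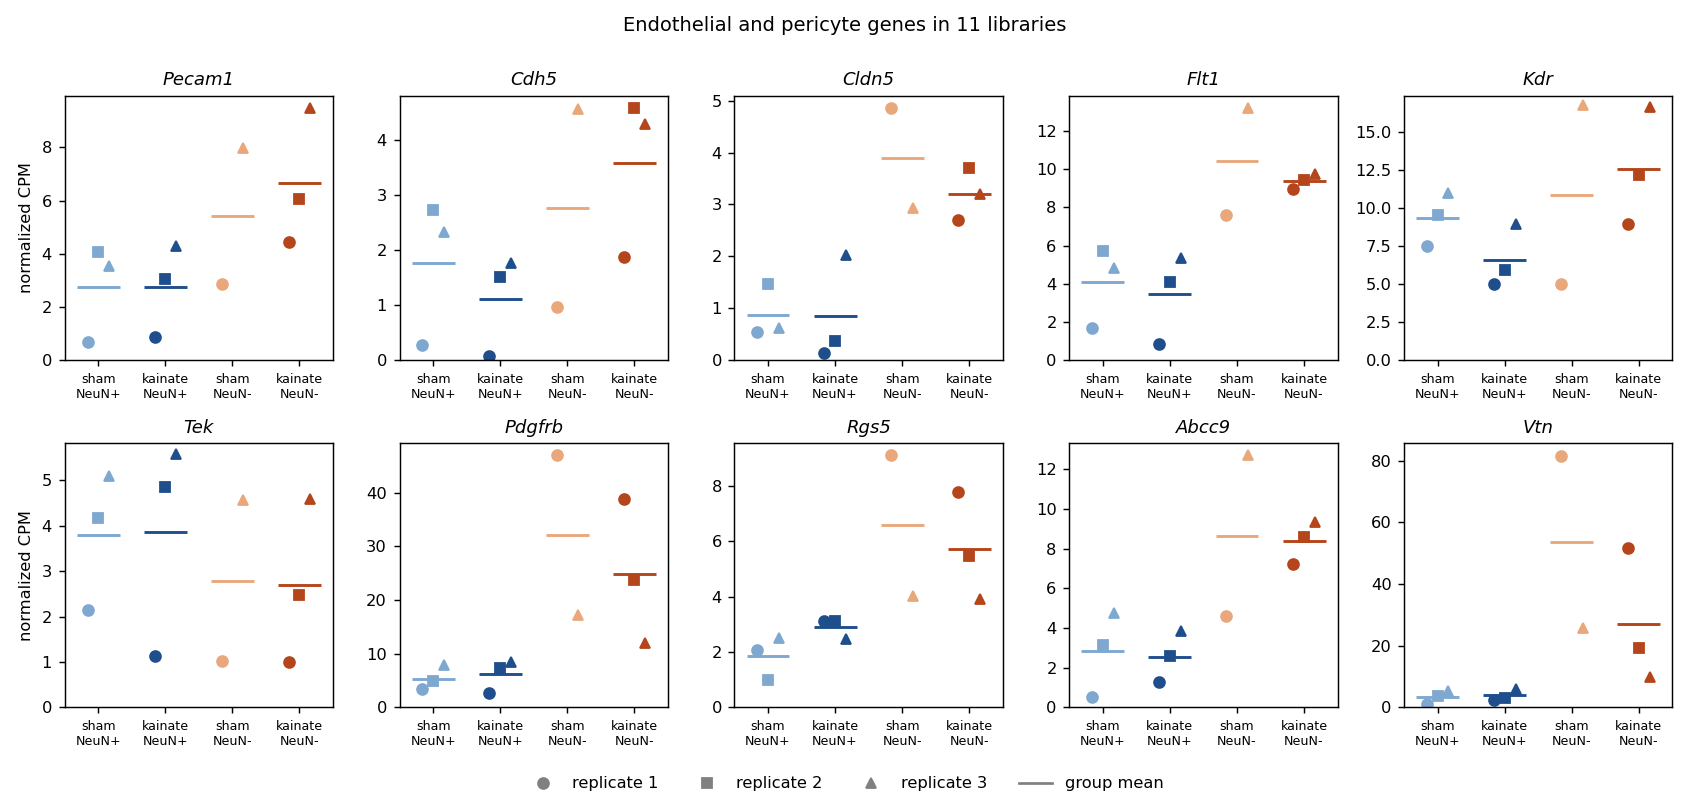
Normalized CPM (vertical axes, each from 0) of the 6 endothelial and 4 pericyte genes in the 4 groups (horizontal axes). Points are single libraries, the marker shape is the replicate number, and lines are group means. Every NeuN+ library lay below every NeuN- library for Cldn5, Flt1, Pdgfrb, Rgs5 and Vtn, and replicate 1 was the lowest of its group for Tek.

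Over both treatments, 7 of the 10 genes were lower in NeuN+ than in NeuN- nuclei at an FDR below 0.25 (edgeR's quasi-likelihood test with Benjamini-Hochberg adjustment), the threshold used by the study. Of all tested genes, 20.4% were called lower. The 7 were Pecam1, Cldn5 and Flt1 and all 4 pericyte genes, and 6 of them had an FDR below 0.05, beside 7.42% of all tested genes. The median log2 difference was -1.13 for the endothelial genes, -1.97 for the pericyte genes, and -0.47 for all tested genes. With the pool as a block, 9 genes were lower and Tek was higher in NeuN+ nuclei, beside 34.8% of all tested genes lower and 24.9% higher. Fits without the 4 libraries of replicate 1, a choice made after the data were seen, left replicate 3 as the only sham NeuN- library. The spread of that group is then borrowed from the others, so only the size of the difference is given for single genes.

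The adhesion and junction genes were all at low levels. Pecam1 encodes the adhesion molecule CD31 at contacts between endothelial cells. It had 0.671, 4.05 and 3.55 CPM in sham NeuN+ replicates 1, 2 and 3 and 0.854, 3.06 and 4.28 in kainate NeuN+ replicates 1, 2 and 3. In NeuN- nuclei it had 2.88 and 7.98 CPM in sham replicates 1 and 3, and 4.45, 6.04 and 9.5 in kainate replicates 1, 2 and 3. The highest library was kainate NeuN- replicate 3, but sham NeuN- replicate 1 lay below 4 NeuN+ libraries, so the fractions overlapped. The log2 difference of Pecam1 was -1.12 ± 0.52 (SE, FDR = 0.168, edgeR), and -1.49 ± 0.31 (FDR = 0.00396) with the pool as a block. The call of Pecam1 was lost without sham NeuN- replicate 3 (-0.65 ± 0.54, FDR = 0.513, edgeR) and without sham NeuN+ replicate 1 or kainate NeuN+ replicate 1 or 2 (FDR from 0.251 to 0.284).

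Cdh5 encodes VE-cadherin, the adherens junction protein of endothelium. Its levels were 0.269, 2.73 and 2.32 CPM in sham NeuN+ replicates 1, 2 and 3 and 0.0711, 1.5 and 1.76 in kainate NeuN+ replicates, the lowest of which rested on 1 count. In NeuN- nuclei Cdh5 had 0.959 and 4.56 CPM in sham replicates 1 and 3, and 1.88, 4.58 and 4.30 in kainate replicates 1, 2 and 3. Replicate 1 was the lowest library in each group, and the fractions overlapped across replicate numbers. The log2 difference of Cdh5, -1.14 ± 0.69 (SE, FDR = 0.291, edgeR), did not pass. With the pool as a block it was -1.61 ± 0.43 (FDR = 0.0153), and without sham NeuN- replicate 3 it was -0.37 ± 0.73 (FDR = 0.801).

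Cldn5 encodes claudin-5, the main claudin of the tight junctions of brain endothelium. It had 0.537, 1.46 and 0.612 CPM in sham NeuN+ replicates 1, 2 and 3, and 0.142 (2 counts), 0.357 and 2.03 in kainate NeuN+ replicates. In NeuN- nuclei it had 4.86 and 2.93 CPM in sham replicates 1 and 3, and 2.70, 3.70 and 3.20 in kainate replicates. The 2 fractions did not overlap, since the highest NeuN+ library was below the lowest NeuN- library. Cldn5 was the endothelial gene with the largest fraction difference, -2.02 ± 0.59 on the log2 scale (SE, FDR = 0.0282, edgeR).

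Of the growth factor receptors, Flt1 was called lower in NeuN+ nuclei, and Kdr and Tek were not. Flt1 encodes VEGF receptor 1, which binds VEGF tightly and has a secreted form. It had 1.68, 5.74 and 4.80 CPM in sham NeuN+ replicates 1, 2 and 3 and 0.854, 4.10 and 5.36 in kainate NeuN+ replicates. In NeuN- nuclei the levels of Flt1 were 7.60 and 13.2 CPM in sham replicates 1 and 3 and 8.97, 9.43 and 9.78 in kainate replicates. The fractions of Flt1 did not overlap, and the log2 difference was -1.39 ± 0.44 (SE, FDR = 0.0427, edgeR).

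Kdr encodes VEGF receptor 2, the main signalling receptor for VEGF. Its NeuN+ levels were the highest of the endothelial genes on the CPM scale, at 7.52, 9.53 and 11 in sham replicates 1, 2 and 3 and 4.98, 5.91 and 8.96 in kainate replicates. In NeuN- nuclei Kdr had 4.98 and 16.8 CPM in sham replicates 1 and 3, and 8.97, 12.2 and 16.7 in kainate replicates. Sham NeuN- replicate 1 lay near the lowest NeuN+ library, and the fractions overlapped. The log2 difference of Kdr was -0.58 ± 0.34 (SE, FDR = 0.281, edgeR), which was not called. With the pool as a block it was -0.48 ± 0.24 (FDR = 0.144), and without sham NeuN- replicate 3 it was -0.004 ± 0.34.

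Tek encodes Tie2, the receptor for the angiopoietins. It had 2.15, 4.16 and 5.09 CPM in sham NeuN+ replicates 1, 2 and 3 and 1.14, 4.84 and 5.58 in kainate NeuN+ replicates. In NeuN- nuclei Tek had 1.02 and 4.56 CPM in sham replicates 1 and 3, and 1.00, 2.48 and 4.58 in kainate replicates. Within each of the 5 pools, the NeuN+ library was the higher of the pair, as it was for 21.2% of all tested genes. The log2 difference of Tek was 0.48 ± 0.55 (SE, FDR = 0.560, edgeR) without a block and 0.53 ± 0.30 (FDR = 0.195) with the pool as a block. It was 0.16 ± 0.55 without sham NeuN- replicate 1 and 1.21 ± 0.60 (FDR = 0.228, edgeR) without sham NeuN- replicate 3.

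Of the 10 genes, the pericyte genes Vtn and Pdgfrb had the largest differences between fractions without a block, while Rgs5 and Abcc9 had smaller ones than the endothelial gene Cldn5. With the pool as a block, Cldn5 (-2.56 ± 0.51, SE) also exceeded Pdgfrb (-2.18 ± 0.50), and the differences between these genes were not tested. Vtn encodes vitronectin, a matrix glycoprotein that brain pericytes make. It had 1.01, 3.76 and 5.45 CPM in sham NeuN+ replicates 1, 2 and 3 and 2.49, 3.21 and 6.03 in kainate NeuN+ replicates. In NeuN- nuclei Vtn had 81.6 and 25.7 CPM in sham replicates 1 and 3 and 51.7, 19.3 and 9.75 in kainate replicates 1, 2 and 3. All NeuN- libraries were above all NeuN+ libraries, and the NeuN- libraries of replicate 1 were the highest in both treatments. For Vtn the fractions differed by -3.37 ± 0.53 on the log2 scale (SE, FDR = 0.000386, edgeR). Without the libraries of replicate 1 the difference was -1.95, with replicate 3 as the only sham NeuN- library.

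Pdgfrb encodes the PDGF receptor beta, which pericytes need to be recruited to vessels. It had 3.36, 4.88 and 7.87 CPM in sham NeuN+ replicates 1, 2 and 3 and 2.70, 7.26 and 8.51 in kainate NeuN+ replicates. In NeuN- nuclei Pdgfrb had 47.0 and 17.3 CPM in sham replicates 1 and 3 and 38.9, 23.7 and 12 in kainate replicates. The fractions did not overlap, and replicate 1 was again the highest NeuN- library of both treatments. The log2 difference of Pdgfrb was -2.29 ± 0.42 (SE, FDR = 0.00123, edgeR), and -1.19 without the libraries of replicate 1.

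Rgs5 encodes a regulator of G protein signalling that is abundant in brain pericytes. It had 2.08, 0.976 and 2.51 CPM in sham NeuN+ replicates 1, 2 and 3 and 3.13, 3.11 and 2.48 in kainate NeuN+ replicates. In NeuN- nuclei Rgs5 had 9.14 and 4.02 CPM in sham replicates 1 and 3 and 7.78, 5.46 and 3.93 in kainate replicates. The lowest NeuN- library was above the highest NeuN+ library. For Rgs5 the fractions differed by -1.40 ± 0.38 on the log2 scale (SE, FDR = 0.0186, edgeR), and by -0.85 without the libraries of replicate 1.

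Abcc9 encodes SUR2, the regulatory subunit of the ATP-sensitive potassium channel of pericytes. It had 0.537, 3.16 and 4.77 CPM in sham NeuN+ replicates 1, 2 and 3 and 1.28, 2.57 and 3.83 in kainate NeuN+ replicates. In NeuN- nuclei Abcc9 had 4.6 and 12.7 CPM in sham replicates 1 and 3 and 7.21, 8.58 and 9.33 in kainate replicates. Sham NeuN- replicate 1 lay just under the highest NeuN+ library, so the fractions overlapped by this pair of libraries. The log2 difference of Abcc9 was -1.65 ± 0.49 (SE, FDR = 0.0302, edgeR). Of its exon bases, 158 (1.89%) are also exon of 5330439B14Rik on the opposite strand, and the other 9 genes share no exon bases with another gene.

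**Figure D2:**
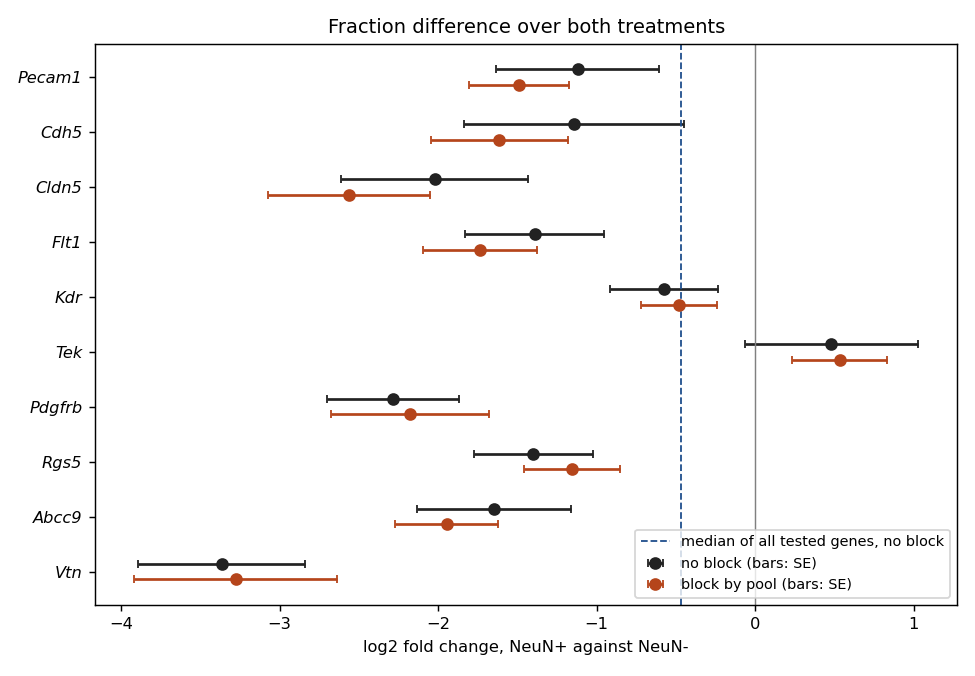
Log2 difference between NeuN+ and NeuN- nuclei (horizontal axis) for each gene (vertical axis), without a block (dark) and with the pool as a block (red). Bars are SE, and the dashed line is the median of all tested genes, -0.47. The values run from -3.37 for Vtn to 0.48 for Tek without the block.

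Across the 10 genes, the fractions did not overlap for 5, namely Cldn5, Flt1, Pdgfrb, Rgs5 and Vtn, beside 6.31% of all tested genes with every NeuN+ library below every NeuN- library. NeuN- levels were above NeuN+ levels in 5 of 5 pools for 8 genes, all but Kdr and Tek, beside 19.4% of all tested genes. The fraction difference was also read within each treatment. In sham mice 4 of 10 were called (Cldn5, Pdgfrb, Rgs5 and Vtn), beside 7.63% of all tested genes, 7 with the pool as a block, beside 15.7%, and 8 with the replicate number as a block, beside 15.8%. In kainate mice 5 of 10 were called (Cldn5, Flt1, Pdgfrb, Abcc9 and Vtn), beside 9.39%, 9 with the pool as a block, beside 27.9%, and 9 with the number as a block, beside 28.9%. In sham mice the log2 difference was -3.96 ± 0.78 (SE) for Vtn, -2.57 ± 0.61 for Pdgfrb, -1.82 ± 0.56 for Rgs5 and -2.13 ± 0.86 for Cldn5. In kainate mice it was -2.77 ± 0.71 for Vtn, -2.0 ± 0.56 for Pdgfrb, -1.70 ± 0.66 for Abcc9, -1.91 ± 0.80 for Cldn5 and -1.44 ± 0.60 for Flt1.

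How strongly each gene was held by the NeuN- fraction was then read within pools, as the NeuN- level over the sum of both fractions in the 5 pools with both libraries. A share of 50% means equal CPM in both fractions, and the share takes no account of how many nuclei each fraction held. The median of all tested genes lay between 48.8% and 58.8% in the 5 pools. Vtn spanned a wide range, with 98.8% and 82.5% in sham pools 1 and 3 and 95.4%, 85.8% and 61.8% in kainate pools 1, 2 and 3. Pdgfrb had 93.3% and 68.7% in the sham pools and 93.5%, 76.5% and 58.5% in the kainate pools. For both, pool 1 was the highest of each treatment, and the share of Pdgfrb in kainate pool 3 lay next to the median of all genes in that pool, 58.4%.

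The other shares also varied between pools, with 66.3% to 96.4% for Cdh5. Abcc9 had 70.9% to 89.5% (median 76.9%) and Rgs5 61.4% to 81.4% (median 63.7%). Cldn5, whose NeuN+ counts were the smallest with those of Cdh5, had 61.3% to 95.0% (median 90.0%). Cdh5 had a median of 75.3%, Flt1 of 73.4% and Pecam1 of 69.2%, all above the median of all genes in each of the 5 pools. Kdr was above 50% in 4 of 5 pools, with 39.9% in sham pool 1 and 60.5% to 67.3% in the others. Tek was below 50% in all 5, from 32.2% to 47.2%. Summed over the genes, pericyte genes had 62.7% to 95.3% of their level in NeuN- nuclei and endothelial genes 63.2% to 77.7%. The further endothelial identity genes described below had 50.2% to 62.6%, beside medians of 48.8% to 58.8% for all tested genes. Further pericyte genes had 74.2% to 95.8%, blood-brain barrier genes 60.8% to 77.5% and smooth muscle genes 43.4% to 68.5%. By the same measure, oligodendrocyte markers had 91.6% to 99.3%, microglia markers 90.0% to 98.2%, astrocyte markers 54.9% to 94.4% and neuron markers 9.75% to 17.7%.

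**Figure D3:**
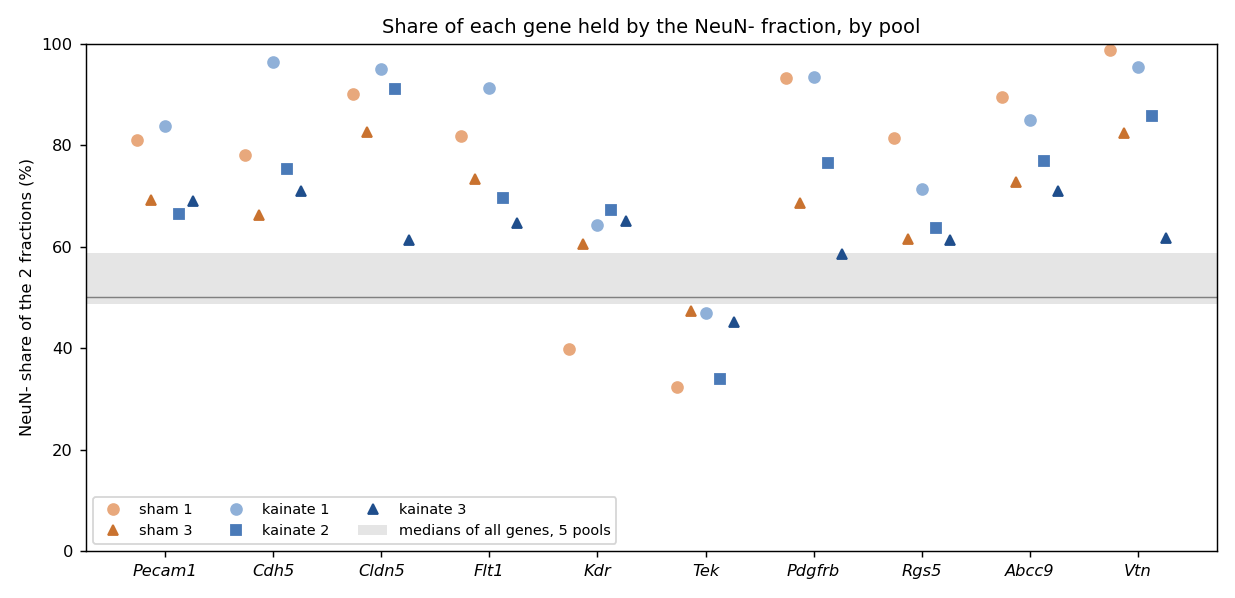
Share of each gene's level that was found in the NeuN- fraction (vertical axis, percent of the summed normalized CPM of both fractions) in each of 5 pools. The grey band spans the medians of all tested genes, 48.8% to 58.8%. Vtn reached 98.8% in sham pool 1 and 61.8% in kainate pool 3, and Tek stayed under 50% in each pool.

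To compare levels between genes, CPM were divided by the exon length of each gene in kb. On this scale the order in NeuN- nuclei was Vtn with 18.5 ± 14.3 CPM per kb (SD, n = 5), Pdgfrb with 5.07 ± 2.69, Cldn5 with 2.45 ± 0.605, Rgs5 with 1.33 ± 0.510, Kdr with 1.32 ± 0.563, Abcc9 with 1.01 ± 0.354, Pecam1 with 0.991 ± 0.426, Cdh5 with 0.775 ± 0.407, Flt1 with 0.726 ± 0.155 and Tek with 0.579 ± 0.379. From Rgs5 to Tek, neighbours in this order differed by less than their SD. In NeuN+ nuclei Vtn with 1.80 ± 0.920 CPM per kb (SD, n = 6) and Pdgfrb with 1.05 ± 0.448 led again, followed by Kdr with 0.884 ± 0.252 and Tek with 0.812 ± 0.378, and the other 6 lay between 0.278 (Flt1) and 0.605 (Cldn5). All neighbours in the NeuN+ order differed by less than the larger of their SDs.

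These levels were set beside gene families whose known sites of expression are outside the brain, chosen after the data were seen. The median of 1134 olfactory receptor genes, which serve smell in the nasal epithelium, was 0.0509 to 0.194 CPM per kb in NeuN+ and 0.0352 to 0.561 in NeuN- libraries. The median of 53 keratin genes, which build the cytoskeleton of epithelia and hair, was 0.123 to 0.826 CPM per kb in NeuN+ and 0.0371 to 1.57 in NeuN- libraries. Both medians were lowest in sham NeuN- replicate 1 and highest in the NeuN- libraries of replicate 3. Between NeuN+ and NeuN- nuclei, the median log2 difference was -1.25 for the 1053 olfactory receptor genes tested, of which 405 were called lower, and -0.70 for the 53 keratin genes, of which 0 were called lower and 5 higher. Of all tested genes, 20.4% were called lower and 16.8% higher. The median of the olfactory receptor genes was close to that of the endothelial genes given above, and that of the pericyte genes was lower.

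Vtn, Pdgfrb and Kdr were above the keratin median in each of the 11 libraries. Vtn was 3.39 to 1083 times and Pdgfrb 1.54 to 231 times that median in NeuN- libraries, while Kdr was 1.19 to 14.9 times. Cldn5 was above it in all 5 NeuN- libraries (1.32 to 92.4 times) and in 3 of 6 NeuN+ libraries. Pecam1, Cdh5, Abcc9 and Rgs5 exceeded it in 3 of 5 NeuN- libraries each, and Flt1 and Tek in 2 of 5. In NeuN+ libraries Pecam1, Cdh5 and Flt1 exceeded it in 1 of 6 each, Rgs5 in 3 of 6 and Abcc9 in 0 of 6, whereas Tek exceeded it in 6 of 6, at 1.33 to 3.70 times. For all 10 genes the largest excess among NeuN- libraries fell in sham replicate 1, and the levels of Pecam1, Cdh5, Flt1, Abcc9, Tek and Rgs5 in NeuN- replicate 3 were 0.51 to 1.08 times the keratin median. The part of this background in the differences between fractions was not tested.

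**Figure D4:**
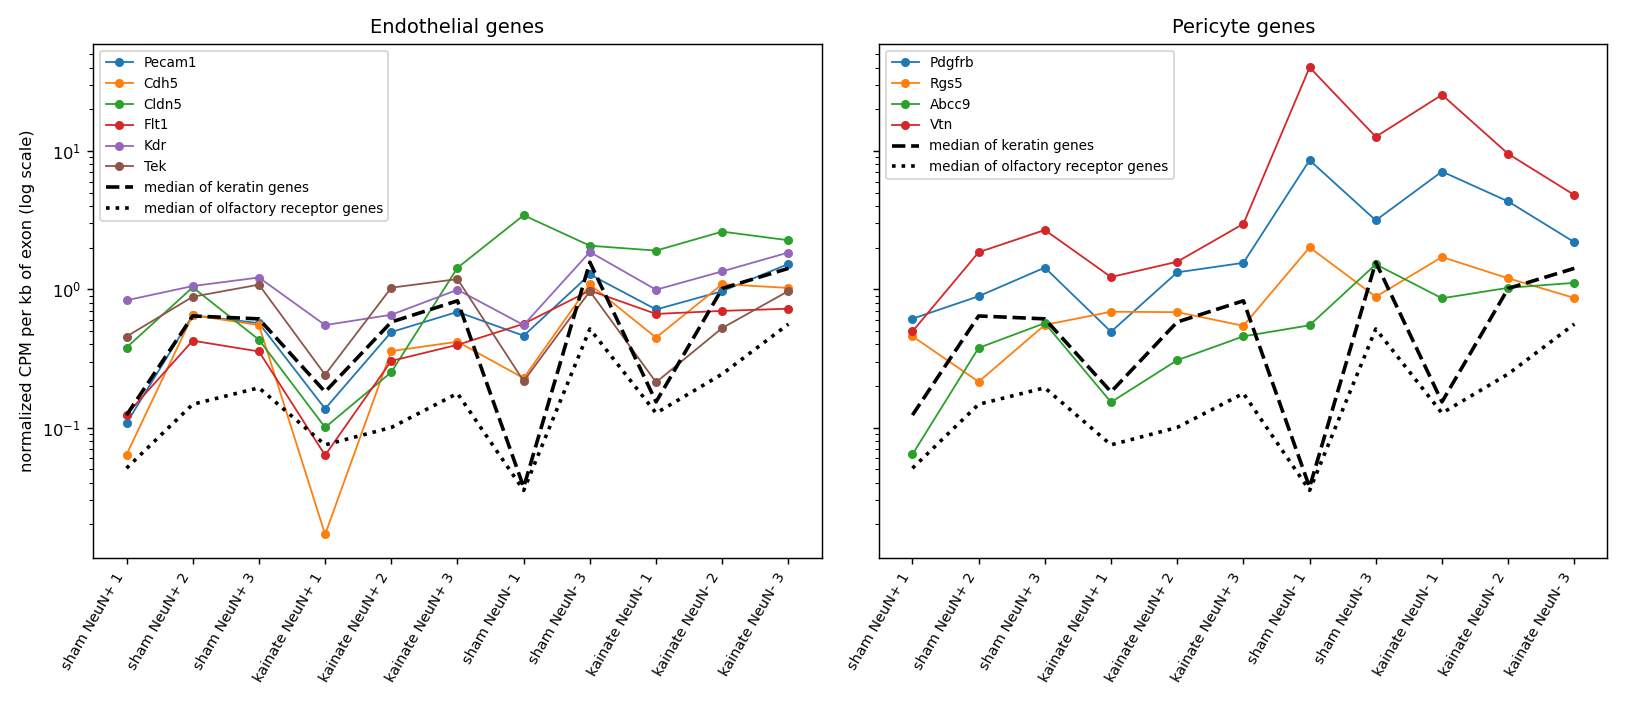
Level of each endothelial gene (left) and pericyte gene (right) in the 11 libraries, as normalized CPM per kb of exon on a log scale, with the median of 53 keratin genes (dashed) and of 1134 olfactory receptor genes (dotted). The keratin median ran from 0.0371 in sham NeuN- replicate 1 to 1.57 in sham NeuN- replicate 3, where Pecam1, Flt1, Tek and Cdh5 lay below it and Vtn lay above it.

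Within the NeuN- fraction, replicate 1 was the highest library for Vtn, Pdgfrb and Rgs5 in both treatments and the lowest for Pecam1, Kdr, Tek, Cdh5, Abcc9 and Flt1. In replicate 1, the ratio to the other libraries of the group was 3.18 in sham and 3.55 in kainate for Vtn, 2.72 and 2.18 for Pdgfrb, and 2.28 and 1.66 for Rgs5. For Pecam1 it was 0.360 and 0.573, for Kdr 0.297 and 0.622, for Tek 0.224 and 0.284, for Cdh5 0.210 and 0.424, and for Abcc9 0.362 and 0.805. Flt1 had 0.574 and 0.934, so that in kainate it was close to the other libraries, and Cldn5 went in opposite directions, with 1.66 and 0.781. Vtn, Pdgfrb and Rgs5 were thus higher in the libraries that also had the most oligodendrocyte marker counts and the lowest keratin medians, and the part of either in these ratios was not tested. In NeuN+ nuclei replicate 1 was lower for 9 of the 10 genes in both treatments, with ratios of up to 0.733 (Kdr, sham). The lowest ratio, of Cdh5 in kainate, rested on 1 count, and that of Cldn5 in kainate on 2. Rgs5 had ratios of 1.19 and 1.12.

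Correlations over the 11 libraries are given as a description, since the libraries share pools, fractions and depth. Vtn went with Pdgfrb (Pearson's r = 0.964 of log2 CPM, 11 libraries), and Rgs5 went with both (0.811 and 0.828). Pecam1 went with Cdh5 (0.949), Flt1 (0.924) and also with the pericyte gene Abcc9 (0.945). Other pairs of an endothelial and a pericyte gene were also high, with 0.830 and 0.804 for Cldn5 with Pdgfrb and Vtn, and 0.790 and 0.748 for Flt1 with the same genes. Abcc9 had 0.735 with Pdgfrb and 0.765 with Vtn. Tek had -0.359 with Vtn and -0.578 with Rgs5. Among 23227 genes with an average log2 CPM of at least 0, the 5 most like the mean of the pericyte genes were Abtb2, Smim1, Vcam1, Mrc2 and Gm7997 (r from 0.985 to 0.989). The 5 most like the mean of the endothelial genes were Gm18289, Arhgef5, Smyd1, Phf19 and Gbgt1 (r from 0.979 to 0.983).

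Of 83 further vascular genes in 7 lists, 42 were lower and 10 higher in NeuN+ nuclei, with a median log2 difference of -0.95. Of all tested genes, 20.4% were lower and 16.8% higher, with a median of -0.47, and the list counts below are to be read against these shares. The pericyte list was the most one-sided, with 10 of 11 lower, 0 higher and a median of -1.30. Its leading genes were Mcam, which encodes the adhesion molecule CD146 (-5.07 ± 0.52, SE), Atp13a5, a pericyte-enriched transporter (-3.01 ± 0.38), and Kcnj8, the channel pore that Abcc9 regulates (-2.13 ± 0.37). Of 19 further endothelial identity genes, 7 were lower, 2 higher and 10 not called, with a median of -0.72. Fli1, a transcription factor of endothelium that microglia also express, was lower (-2.93 ± 0.38), as was the TGF-beta co-receptor Eng (-1.52 ± 0.39), while Egfl7, a secreted endothelial factor, was higher in NeuN+ nuclei (2.34 ± 0.36).

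Of 14 blood-brain barrier genes, 8 were lower and 2 higher, with a median of -0.80. The leading genes were Cav1, the coat protein of caveolae (-3.89 ± 0.44, SE), Mfsd2a, a lipid transporter (-3.02 ± 0.48), and Slc2a1, the glucose transporter GLUT1 (-2.51 ± 0.45). Of 17 ligands and other receptors of the VEGF, angiopoietin, PDGF and Notch pathways, 7 were lower and 4 higher, led by the VEGF co-receptor Nrp1, which neurons also use (2.52 ± 0.30), S1pr1 (-4.65 ± 0.63) and Notch1 (-2.09 ± 0.34). Of 10 activation genes 5 were lower and 1 higher, led by the leukocyte adhesion molecules Icam1 (-4.11 ± 0.52) and Vcam1 (-3.58 ± 0.46) and by the matrix gene Ccn1 (-3.00 ± 0.40).

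Of 6 fibroblast genes 4 were lower and 1 higher, led by the transporter gene Slc6a13 (-2.54 ± 0.43, SE) and the collagen genes Col3a1 (-1.82 ± 0.32) and Col1a2 (-2.47 ± 0.45). Of 6 smooth muscle genes only Myl9 was called (-2.03 ± 0.66), while Acta2 had -1.04 ± 0.67 and Myh11 -0.68 ± 0.56. Of other cells found at or in vessels, all 4 markers of perivascular macrophages were lower in NeuN+ nuclei, with a median of -1.57. Of 5 red blood cell markers 0 were lower and 1 (Alas2) was higher, with summed levels of 12 to 17.2 CPM in NeuN+ and 8.73 to 12.3 in NeuN- libraries.

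Between kainate and sham mice, 0 of the 10 genes passed an FDR below 0.25 in NeuN+ nuclei, beside 0.165% of all tested genes, and 0 of 10 in NeuN- nuclei, beside 0.101% (edgeR's quasi-likelihood test). DESeq2's Wald test also called 0 of 10 in both fractions, beside 0.884% and 0.624% of all tested genes. In edgeR's test 0 of 10 had an unadjusted p below 0.05, beside 2.09% and 2.05%. No gene had kainate libraries all above or all below the sham libraries, in either fraction. Among all tested genes, 4.26% had all kainate libraries above and 3.60% below in NeuN+ nuclei, and 4.70% and 3.52% in NeuN- nuclei. In these bulk samples, fewer nuclei of a cell type and less RNA per nucleus could not be told apart.

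In NeuN+ nuclei the log2 effects of kainate ranged from -0.66 ± 0.93 (SE) for Cdh5 to 0.65 ± 0.51 for Rgs5, with a median of -0.04, beside -0.02 for all tested genes. Kdr had -0.50 ± 0.46 (FDR = 1, edgeR), and its kainate library was the lower in 3 of 3 replicate numbers, as was that of Cdh5, beside 13.1% of all tested genes. Across 24 alternative settings these 3 genes kept their sign, with ranges of -1.15 to -0.14 for Cdh5, -0.78 to -0.33 for Kdr and 0.33 to 0.94 for Rgs5, and the other 7 changed sign in at least 1. With the replicate number as a block, 0 of 10 were called, beside 5.09% of all tested genes.

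In NeuN- nuclei the effects ranged from -1.0 ± 0.73 (SE) for Vtn to 0.38 ± 1.04 for Cdh5. The 4 pericyte genes had values below 0, with a median of -0.29, and the endothelial genes had a median of 0.08, beside 0.02 for all tested genes. Vtn was lower in kainate in both replicate numbers that both treatments have, with 51.7 against 81.6 CPM in replicate 1 and 9.75 against 25.7 in replicate 3. Pdgfrb was also lower in both, with 38.9 against 47.0 CPM and 12 against 17.3, as was Rgs5, with 7.78 against 9.14 and 3.93 against 4.02, beside 23.4% of all tested genes lower in both. With the replicate number as a block, which compares kainate with sham in replicates 1 and 3 and leaves kainate replicate 2 to fit itself, Vtn was the only gene of the 10 called, at -1.02 ± 0.29 (FDR = 0.0397, edgeR), beside 5.79% of all tested genes. Without sham NeuN- replicate 1 the effect of Vtn was 0.10, and without both low-input libraries it was 0.28 ± 0.95. Markers of other NeuN- cells moved with it, since the median effect was -1.03 for astrocyte, -0.79 for oligodendrocyte, -0.97 for oligodendrocyte precursor and -0.74 for microglia markers, and their part in the value of Vtn was not tested. All 10 genes changed sign in NeuN- nuclei under at least 1 of the 24 settings.

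**Figure D5:**
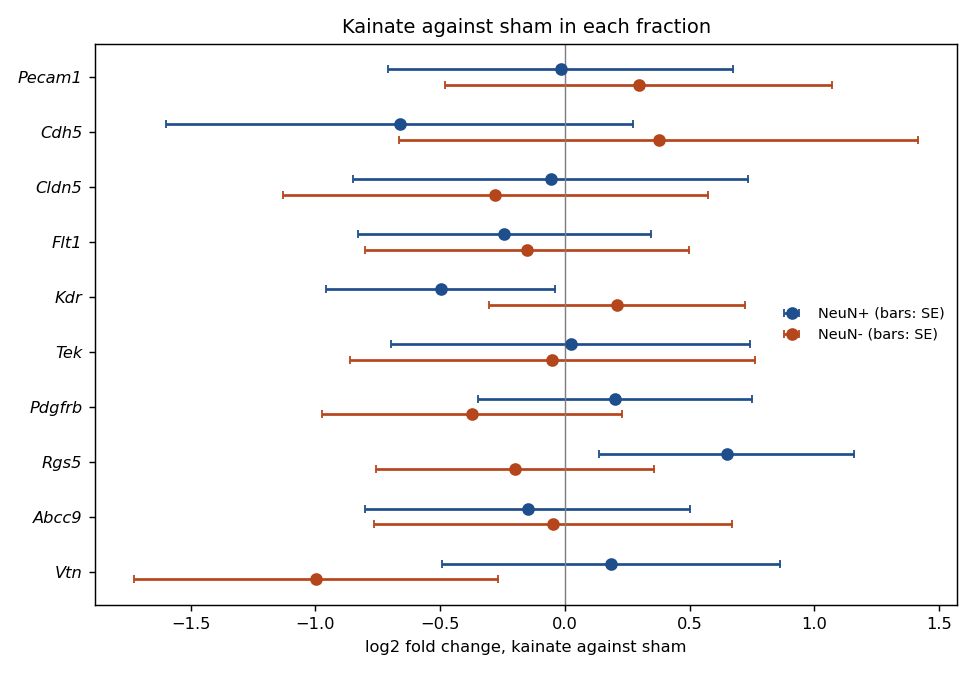
Log2 difference between kainate and sham (horizontal axis) for each gene (vertical axis) in NeuN+ (blue) and NeuN- (red) nuclei, with SE as bars. The values run from -1.0 (Vtn, NeuN-) to 0.65 (Rgs5, NeuN+), and the bars of most genes cross 0.

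The difference between the effects of kainate in the 2 fractions was tested as an interaction, and 0 of 10 genes were called, beside 0.00246% of all tested genes. DESeq2 called 0 of 10, beside 0.0761%. In edgeR's test 0 had an unadjusted p below 0.05, beside 0.909%. The values ranged from -1.04 ± 1.40 (SE) for Cdh5 to 1.18 ± 1.00 for Vtn. With the replicate number as a block, Vtn was called at 1.28 ± 0.40 (FDR = 0.157, edgeR), beside 1.94% of all tested genes, and without both low-input libraries its value was -0.10 ± 1.15.

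Of the 83 further vascular genes, 0 were called for kainate in NeuN+ nuclei, in NeuN- nuclei or in the interaction, with 4, 3 and 1 at an unadjusted p below 0.05, beside 2.09%, 2.05% and 0.909% of all tested genes. The study fitted each cell type separately, and at the same threshold it listed Notch1 and Ccn1 as upregulated in neurons. DESeq2 called 4, 1 and 0, beside 0.884%, 0.624% and 0.0761%. With the replicate number as a block, 15, 13 and 4 were called, beside 5.09%, 5.79% and 1.94%. Of these, 10, 8 and 3 were higher and 5, 5 and 1 lower. Those described here were chosen after their values were seen, among them the ligand Vegfa, at 2.03 ± 0.20 (SE, FDR = 6.27e-11, edgeR) in NeuN+ and 0.87 ± 0.23 (FDR = 0.0242) in NeuN- nuclei. The receptors of this ligand, Flt1 and Kdr, had -0.34 ± 0.32 and -0.52 ± 0.27 in NeuN+ nuclei and -0.11 ± 0.36 and 0.39 ± 0.33 in NeuN- nuclei in the same fit, none of them called. The immediate early matrix gene Ccn1 was at 2.39 ± 0.25 (SE) for the NeuN+ and at 2.23 ± 0.27 for the NeuN- fraction, and Icam1 had 1.51 ± 0.31 (FDR = 0.000875, edgeR) in NeuN- nuclei. Of those that were lower, the fibroblast gene Dcn had -1.31 ± 0.22 (FDR = 2.41e-05, edgeR) in NeuN+ nuclei and the receptor gene S1pr1 had -1.15 ± 0.24 (FDR = 0.00112) in NeuN- nuclei. Markers of other NeuN- cells were also lower in kainate, as given above, and their part in the value of S1pr1 was not tested.

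In mm10, the endothelial genes lie at chr11:106654217-106750628 on the minus strand (Pecam1), chr8:104101625-104144511 on the plus strand (Cdh5), chr16:18776847-18778262 on the plus strand (Cldn5), chr5:147561604-147726011 on the minus strand (Flt1), chr5:75932827-75978458 on the minus strand (Kdr) and chr4:94739289-94874976 on the plus strand (Tek). The pericyte genes lie at chr18:61045150-61085061 on the plus strand (Pdgfrb), chr1:169655501-169695813 on the plus strand (Rgs5), chr6:142587862-142702315 on the minus strand (Abcc9) and chr11:78499091-78502324 on the plus strand (Vtn). Counts covered all annotated exons of a gene together, 1416 bp in 1 block for Cldn5 and up to 13504 bp in 33 blocks for Flt1.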

How the data were processed

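The authors trimmed mRNAseq reads with Trim Galore 0.4.3, aligned them to mm10 with Rsubread and gave uniquely mapping reads to GENCODE M16 genes with featureCounts, and the deposited values are these raw counts. Bisulfite samples were not used here. Symbols and exon lengths came from GENCODE M21, which named 53274 of 53379 identifiers, and the 105 without a symbol were left out. The cDNA kit does not mark strand. Libraries were run as single reads on a NextSeq or paired reads on a HiSeq, and which library ran on which is not given in the sources used here, so this was not tested.

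edgeR 4.0.16 (R 4.3.3, limma 3.58.1) kept genes with filterByExpr (minimum count 10, minimum total 15), scaled them by TMM and fitted the quasi-likelihood model (legacy setting) to the 4 group means of all 11 libraries. Genes were called at FDR below 0.25 after Benjamini-Hochberg adjustment over all tested genes. The common biological coefficient of variation was 0.600. The number of pools and low counts limit the precision. Log2 CPM used a prior count of 2, and shares used normalized CPM without one. Ratios of replicate 1 to the other libraries of a group used normalized CPM.

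The 10 genes and the other lists were chosen with earlier results of these data known. Named were the 10 genes, list genes called for kainate (0 without a block), the 3 with the smallest p per vascular list between fractions, 5 cell type markers and the genes of most similar pattern. Tubb3, Alas2 and the genes given under the block were picked with their values in view. The olfactory receptor and keratin families and the fits without replicate 1 were added after the data were seen. Libraries of the same treatment and number were taken as 1 pool. Deviations from the group means correlated over genes at 0.161 to 0.643 between same-numbered sham and kainate NeuN+ libraries, 0.760 and 0.787 in NeuN-, and 0.240 to 0.668 between the fractions of a pool, so the numbers were taken to pair libraries. Sham NeuN- has 2 libraries, whose deviations mirror each other, so 0.760 and 0.787 are not independent values. The pairing of sham with kainate libraries was read from these same data, and all values with the replicate number as a block rest on it. Alternatives were DESeq2 1.42.0 (its size factors, or its Wald test), other low-count filters, genes without a symbol, edgeR's newer method, a robust fit, FDR below 0.05, each library left out, low input, separate fits and replicate blocks. The scripts were tested on simulated data.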

Additional observations from a re-analysis of the deposited data

Results flagged for a closer look

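The effect of kainate on Vtn, which encodes vitronectin, was called as different between the fractions only in the fit with the replicate number as a block. The kainate effect in NeuN+ nuclei minus that in NeuN- nuclei was 1.28 ± 0.40 on the log2 scale (SE, FDR = 0.157, edgeR's quasi-likelihood test). This fit rests on replicates 1 and 3 in NeuN- nuclei. Without the block the value was 1.18 ± 1.00 (FDR = 1.00), and with single libraries left out it ranged from 0.09 to 2.13. Its sign turned without both low-input libraries, where it was -0.10. With the block, 1.94% of all tested genes were called for this difference.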

How the results depend on the processing

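The count of 7 genes lower in NeuN+ nuclei over both treatments was 6 to 9 in all 24 alternatives, over which the share of all tested genes called lower ran from 7.42% to 39.8%, and none of the 10 differences changed sign there. In sham, Cdh5, Kdr and Tek changed sign in at least 1 alternative, with values of up to 0.91 for Cdh5 and Kdr without sham NeuN- replicate 3 and down to -0.22 for Tek without both low-input libraries, and in kainate none did. With the replicate block, counts of these genes moved in sham (from 4 to 7 by pool and 8 by number), in kainate (from 5 to 9 by pool and 9 by number), for kainate in NeuN- nuclei (from 0 to 1) and in the interaction (from 0 to 1). Of the 83 further vascular genes, the block by number called 43 lower in sham, 48 lower in kainate, 15 for kainate in NeuN+, 13 in NeuN- nuclei and 4 in the interaction, beside 15.8%, 28.9%, 5.09%, 5.79% and 1.94% of all tested genes. The sham count of 4 was also 2 at FDR below 0.05, 2 with low RNA input as a covariate and 7 without the libraries of replicate 1, while the share of all tested genes called lower went from 7.63% to 4.17%, 5.83% and 21.9%. The kainate count of 5 was also 9 by DESeq2, 9 by edgeR's newer method, 2 at FDR below 0.05, 3 without both low-input libraries and 9 without the libraries of replicate 1, while the share of all tested genes called lower went from 9.39% to 13.8%, 26.0%, 4.04%, 8.85% and 28.4%.

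With each library left out, the counts ranged from 3 to 6 in sham and from 2 to 9 in kainate, and the share of all tested genes called lower from 5.79% to 14.3% and from 5.53% to 15.5%. The count in kainate was 9 without sham NeuN- replicate 1 or 3, 2 without kainate NeuN+ replicate 1 or 2 or kainate NeuN- replicate 2, and 3 without kainate NeuN- replicate 3, where the share of all genes was 9.82%. Without 1 of the 2 sham NeuN- libraries, as also without the libraries of replicate 1, the remaining library is assumed to be as variable as the other groups.

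At FDR below 0.05 the further vascular genes gave 18 lower in sham and 18 in kainate, beside 4.17% and 4.04% of all tested genes. Their 0 calls for kainate in NeuN+ nuclei became 4 by DESeq2, 1 with genes kept at 1 CPM in 3 libraries, 1 without both low-input libraries, 2 in a separate fit, 8 without replicate 1, beside 0.884%, 0.468%, 0.208%, 1.29% and 2.28% of all tested genes, and 0 to 2 with each library left out, beside 0.0123% to 0.413%. In NeuN- nuclei they became 1 by DESeq2 and 5 without replicate 1, beside 0.624% and 1.08%, and 0 to 4 with each library left out, beside 0.00225% to 6.59%, the highest of both without sham NeuN- replicate 3.

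The sign of Vtn turned without both low-input libraries, to 0.28 in NeuN- nuclei and to -0.10 in the interaction, and with each library left out its NeuN- value ranged from -2.01 to 0.10. The NeuN- value of Cdh5 was -0.54 without both low-input libraries, -0.0253 without replicate 1, and -0.32 to 1.89 with each library left out. The causes were not tested. In replicate 1 of NeuN+ nuclei, Cdh5 and Cldn5 had as few as 1 and 2 counts, so their values there carry little weight.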
